A study of Bactrocera dorsalis with 3 samples.

Results

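The gene described here is tra-2, 1 of 13489 gene models measured by RNA-seq in early embryos of Bactrocera dorsalis, the oriental fruit fly. It was chosen by its place in the deposited count tables, scaffold NW_011876234.1, plus strand, positions 178320 to 181657, and carries the symbol LOC105222300 with the synonyms tra-2 and TRA2 in the reference table of RefSeq genes. Whole embryos were collected at 3 ages, given in hours post-oviposition (hpo): 0-1 hpo, 2-4 hpo and 5-8 hpo. No treatment is named in the labels, and RNA with a poly-A tail was captured on beads and sequenced. With 1 library for each age, a difference between ages cannot be set against replicates, and no p-value was computed. The labels give neither the strain nor the sex of the embryos, and the values are summed over the transcripts of a gene, so splice forms were not analysed here.

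In flies tra-2 encodes an RNA-binding protein with an RNA recognition motif and arginine- and serine-rich regions. In Drosophila melanogaster it acts with the female-specific Tra protein on the transcripts of doublesex and fruitless, and so directs their splicing into the female forms. In tephritid fruit flies such as the medfly, Ceratitis capitata, tra-2 is also needed for the female-specific splicing of tra itself. There, maternally supplied tra and tra-2 products start a self-sustaining loop in XX embryos, and a Y-linked male determiner stops it in XY embryos. In these relatives the sex decision is made in the early embryo.

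The 3 libraries held between 65069185 and 74817640 reads assigned to genes. Genes with an FPKM (fragments scaled to transcript length and to the library total) of 1 or more are called detected, and there were 7046, 7114 and 7773 of them at the 3 ages in order. Only 76 of the gene models have an informative name in the reference table. Of 34 sex determination genes looked for by name, tra-2 was the only match, and none of 27 splicing factor genes or 20 marker genes of the early embryo was matched. The levels of tra, doublesex, fruitless and the other partners of tra-2 were therefore not analysed here, and the labelled stage was not checked against marker genes.

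tra-2 was abundant at every age, from newly laid eggs on. Its read counts were 9506 in the 0-1 hpo library, 11388 in the 2-4 hpo library and 9884 in the 5-8 hpo library. Its FPKM was 97.1 at 0-1 hpo (95% exact counting interval 95.1 to 99.1), 122 at 2-4 hpo (119.6 to 124) and 91.9 at 5-8 hpo (90.1 to 93.8). The 2-4 hpo library stood highest, and the intervals of 0-1 and 5-8 hpo lay next to each other without overlapping. The intervals cover counting error only, and embryo-to-embryo and library-to-library spread is not known. In whole embryos a transcript held in a part of the embryo and a lower level throughout it cannot be told apart. Capture by the poly-A tail makes a value depend on tail length too.

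**Figure D1:**
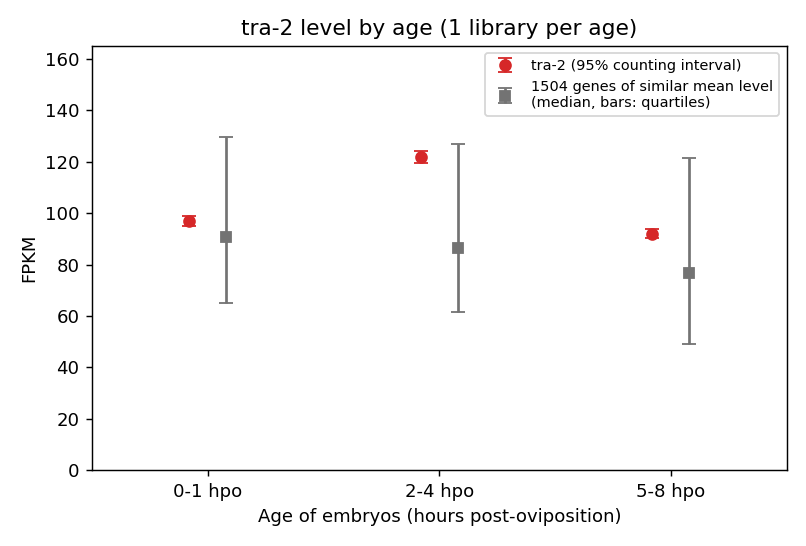
FPKM (vertical axis) of tra-2 with its 95% counting interval, and the median with quartile bars of the 1504 genes of similar mean level, in the single library of each age (horizontal axis). tra-2 was highest at 2-4 hpo, at 122, against 97.1 at 0-1 hpo, and lowest at 5-8 hpo, at 91.9.

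At 2-4 hpo the FPKM of tra-2 was 1.25 times that at 0-1 hpo (95% exact interval of the ratio from the read counts 1.22 to 1.29). At 5-8 hpo it was 0.755 times that at 2-4 hpo (0.735 to 0.776), and 0.947 times that at 0-1 hpo (0.921 to 0.974). None of these ratios reached 2-fold. Of all genes detected in at least 1 library of a pair, 33.3% differed by 2-fold or more at 2-4 against 0-1 hpo, 56.8% at 5-8 against 2-4 hpo and 55.3% at 5-8 against 0-1 hpo.

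Among all genes of a library tra-2 also ranked highest at 2-4 hpo. It was 1056th from the top at 0-1 hpo, 735th at 2-4 hpo and 1041st at 5-8 hpo, which places it above 85.0%, 89.7% and 86.6% of the detected genes. Its level was 2.96 times the median FPKM of detected genes at 0-1 hpo (32.8), 5.19 times at 2-4 hpo (23.4) and 4.29 times at 5-8 hpo (21.4). The genes above it were only in part shared between ages. Of 1518 genes above tra-2 at any age, 461 were above it at every age, 263 at 0-1 hpo only, 31 at 2-4 hpo only and 374 at 5-8 hpo only. Another 184 were above it at 0-1 and 2-4 hpo but not at 5-8 hpo, 147 at 0-1 and 5-8 hpo but not at 2-4 hpo, and 58 at 2-4 and 5-8 hpo but not at 0-1 hpo.

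Levels per length depend on the length used. The counts and FPKM of tra-2 imply a length of 1437 bases in each library, 239 fewer than the 1676 exonic bases listed in the count tables. Such a difference of over 0.1% was found for 23.1% of genes with an FPKM above 0, and the ratio of implied to listed length was lower than that of tra-2, 0.857, in 3.34% of them. With the listed length the FPKM of tra-2 would be 83.2, 104 and 78.8 at the 3 ages in order, and its rank 1255, 856 and 1201. Ratios between ages are the same with either length. The model spans 3338 bases, of which 49.8% are outside the listed exonic length, and the reference table lists 3 transcripts for the gene.

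Which of the outer ages was lower depended on how the libraries were scaled, while the high value at 2-4 hpo did not. On the TPM scale, where FPKM is rescaled to a common sum, tra-2 stood at 186 at 0-1 hpo, 218 at 2-4 hpo and 160.0 at 5-8 hpo. There the ratio of 5-8 to 0-1 hpo was 0.861. With median-of-ratios scaling, which sets the typical gene with reads in all libraries to a ratio near 1, it was 1.06, and with upper-quartile scaling 1.17, so 5-8 hpo was then above 0-1 hpo. tra-2 was highest at 2-4 hpo on all 6 scales tried, at 1.17 to 1.70 times its level at 0-1 hpo.

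**Figure D2:**
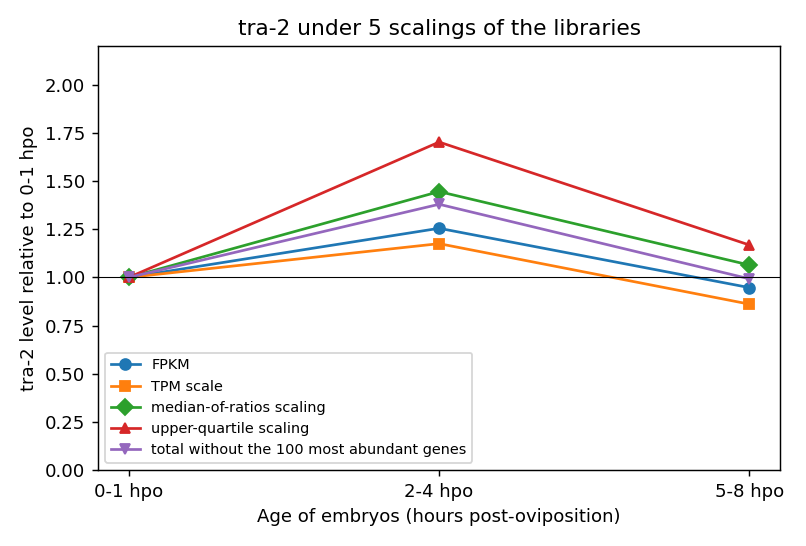
Level of tra-2 relative to 0-1 hpo (vertical axis, from 0) at each age (horizontal axis) under 5 scalings of the libraries. Every line peaks at 2-4 hpo, at 1.17 to 1.70, and the lines end on both sides of 1 at 5-8 hpo, from 0.861 to 1.17.

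Ratios against the typical gene do not depend on the scaling of the libraries. Over the other 6562 genes with an FPKM of 1 or more at every age, the median log2 FPKM ratio was -0.23 at 2-4 against 0-1 hpo, -0.07 at 5-8 against 2-4 hpo and -0.37 at 5-8 against 0-1 hpo. The log2 ratios of tra-2 were 0.33, -0.41 and -0.08. The log2 ratio of tra-2 minus that median was 0.56 at 2-4 against 0-1 hpo. The difference was -0.33 at 5-8 against 2-4 hpo and 0.29 at 5-8 against 0-1 hpo. Relative to the median gene tra-2 thus stood higher at 2-4 hpo and lower again at 5-8 hpo, though still above 0-1 hpo.

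Steadiness was taken as the highest over the lowest FPKM across the 3 ages, which was 1.32 for tra-2 (1.29 to 1.36). It was set against 1504 genes of similar level, those whose geometric mean FPKM lay within 2-fold of that of tra-2, 103. Of these genes 181, or 12.0%, had a smaller ratio than tra-2. Their median ratio was 2.08, with quartiles of 1.55 and 3.44, and 335 of them stayed under 1.5. The ratio was 2 or more in 801 of the 1504, 53.3%, against 65.2% of the 6562 genes detected at every age, and it was 4 or more in 301. tra-2 thus lay at the steady end of its level class without being among its steadiest genes, 103 of which stayed under 1.25. With upper-quartile scaling the ratio of tra-2 was 1.70 and 25.1% of the same genes were steadier.

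**Figure D3:**
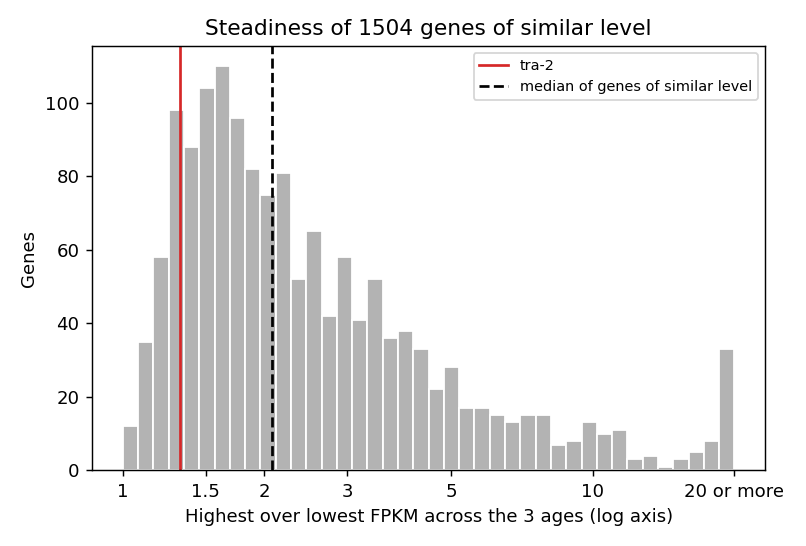
Number of genes (vertical axis) by the highest over the lowest FPKM across the 3 ages (horizontal log axis) for 1504 genes of similar level, with ratios above 20 in the last bar. The line of tra-2 stands at 1.32, left of the median of 2.08.

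Gene level and steadiness went together over a part of the range that ends below the level of tra-2. The genes detected at every age were placed in 10 equal bins by mean level. The median ratio was 3.81 in the lowest bin and 3.92 in the second, and fell from there to 1.98 in the eighth. It was 2.18 in the ninth, which holds tra-2 and runs from a mean FPKM of 68.6 to 117. Genes steadier than tra-2 made up 4.41% of the lowest bin, 14.2% of the eighth and 11.3% of the ninth.

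On FPKM, fewer genes of similar level had a smaller step than tra-2 between the outer ages than between neighbouring ages. At 5-8 against 0-1 hpo, 93 of the 1504 genes of similar level, 6.18%, had a log2 FPKM ratio nearer to 0. For 2-4 against 0-1 hpo the number was 590, 39.2%, and for 5-8 against 2-4 hpo 437, 29.1%. These counts moved with scaling. For 5-8 against 0-1 hpo the count was 232 on the TPM scale, 102 with median-of-ratios scaling, 266 with upper-quartile scaling and 12 with totals that leave out the 100 most abundant genes of each library. For 2-4 against 0-1 hpo it was 427, 765, 869 and 723 under the same scalings, so under median-of-ratios and upper-quartile scaling most genes of the class had a smaller step than tra-2. For 5-8 against 2-4 hpo it was 465, 461, 529 and 477. The order of ages shown by tra-2 on FPKM, with 2-4 hpo highest and 5-8 hpo lowest, was the most frequent of the 6 possible orders in this class on FPKM, at 392 genes, 26.1%. On the TPM scale 374 genes had it, and 396 had their levels in the order of 0-1 over 2-4 over 5-8 hpo. With median-of-ratios scaling tra-2 was lowest at 0-1 hpo instead, an order it shared with 236 genes, 15.7%, while 443 genes were highest at 2-4 hpo and lowest at 5-8 hpo.

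**Figure D4:**
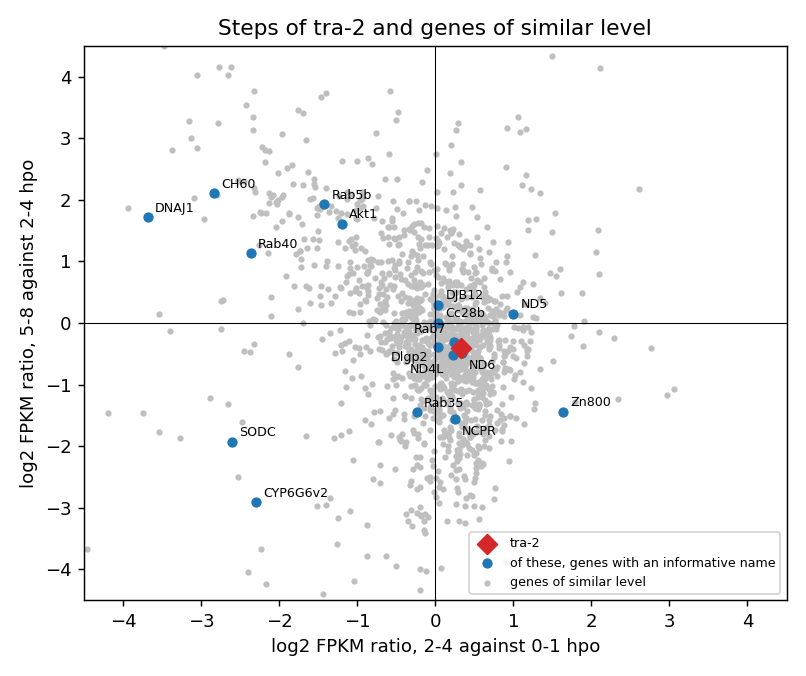
The log2 FPKM ratio of 5-8 against 2-4 hpo (vertical axis) and of 2-4 against 0-1 hpo (horizontal axis) for tra-2 and for genes of similar level, 7 of which lie outside the axes at 4.5. tra-2, at 0.33 on the horizontal and -0.41 on the vertical axis, stands in the dense part of the cloud near Rab7 and ND6. The chaperone genes DNAJ1 and CH60 lie far to the left.

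Genes right beside tra-2 in mean level showed how widely courses differ there. Of the 3 genes just above it, LOC105225387 had FPKM 103, 113 and 94.1 over the 3 ages in order, close to tra-2 at each age. LOC105229938 had 97.1, 42.5 and 264, and LOC105227710 had 356, 339 and 9.05. The latest age was thus the highest for one of these genes and by far the lowest for another. Just below tra-2, LOC105228407 had 71.9, 47.5 and 318 and LOC105225552 had 98.7, 76.7 and 143. LOC105228665, the next, had 82.2, 61.5 and 213. All of those just below tra-2 were lowest at 2-4 hpo, the age at which tra-2 was highest. Of the 1504 genes of similar level, however, 551, or 36.6%, were highest at 2-4 hpo on FPKM. Lowest at 2-4 hpo in this class were 221 genes, 14.7%, with 5-8 hpo highest, and 149, 9.91%, with 0-1 hpo highest.

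Of the genes of similar level, 17 have an informative name, and 4 of these were steadier than tra-2. Cc28b was the steadiest, at FPKM 60.2 at 0-1 hpo, 61.4 at 2-4 hpo and 61.5 at 5-8 hpo. Rab7, which encodes a GTPase of late endosomes, had 122, 143 and 116, a course like that of tra-2 with a ratio of 1.23. DJB12, whose synonym hsp401 marks it as a gene of the Hsp40 co-chaperone family, had 152, 155 and 191. The fourth, Dlgp2, had 66.6, 68.2 and 52.4. Among the 17, 11 genes differed by 2-fold or more between their highest and lowest age, against 53.3% of all genes of similar level. The widest course was that of the cytochrome P450 gene CYP6G6v2, with a ratio of 37.2, followed by the superoxide dismutase gene SODC at 23.2. DNAJ1, an Hsp40-type co-chaperone gene, had a ratio of 12.9 at a geometric mean FPKM of 87.6.

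Genes with the most similar course were sought among 4201 others with an FPKM of 10 or more at every age, by the largest deviation from tra-2 in log2 FPKM after each gene was centred on its own mean over the 3 ages. With 3 ages many genes come close: 359, or 8.55%, deviated by no more than 0.2, and the median deviation was 0.63. The nearest was LOC105227585, at FPKM 54.2, 68.2 and 51.5, followed by LOC105233165 at 23.0, 29.1 and 21.9. LOC105233517, LOC105230964 and LOC105221824 came next, with highest over lowest ratios of 1.33, 1.34 and 1.31. These 5 genes were picked by their course, and all lay at lower levels than tra-2. So did most of the genes compared, as tra-2 ranked 794th of all genes in geometric mean FPKM. None of the 5 has an informative name. Among the 48 named genes compared, the nearest were ND6 at rank 30 of all genes and Rab7 at rank 43. ND6, a mitochondrially encoded subunit of the respiratory chain, had FPKM 61.6, 78.0 and 55.8. ND4L, Dlgp2 and Cc28b followed, at ranks 106, 319 and 505.

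tra-2 is the 6th of 51 models along its scaffold, of which 42 were detected at every age. Of the other 41, 3 were steadier than tra-2, and the median ratio of highest to lowest age was 3.08. Over all 6562 other genes detected at every age, 7.92% were steadier than tra-2 and the median ratio was 2.61. Upstream, 352 bases away on the minus strand and so head to head with tra-2, lies LOC105222299 (161400 to 177967). Over the 3 ages in order this gene had FPKM 26.1, 41.2 and 40.3. It shared the higher level at 2-4 hpo, at 1.57 times that at 0-1 hpo, but not the lower one at 5-8 hpo, at 0.979 times that at 2-4 hpo.

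Downstream, LOC105222302 (181663 to 182470) lies on the minus strand, tail to tail with tra-2, with 5 bases between the models. It had FPKM 60.2, 59.3 and 65.6, with its lowest value at 2-4 hpo, and its ratio of 1.10 was smaller than that of tra-2. No model overlaps that of tra-2. The sources used here do not say whether reads were counted by strand, so reads of a transcript that runs past its annotated end could not be told apart from those of the gene it runs into. The next models on either side had far fewer reads. LOC105222298 had 1, 38 and 104 reads at the 3 ages in order, and at 5-8 hpo it was detected, at FPKM 1.15. LOC109579210 had 1, 4 and 7 reads and stayed below FPKM 1.

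**Figure D5:**
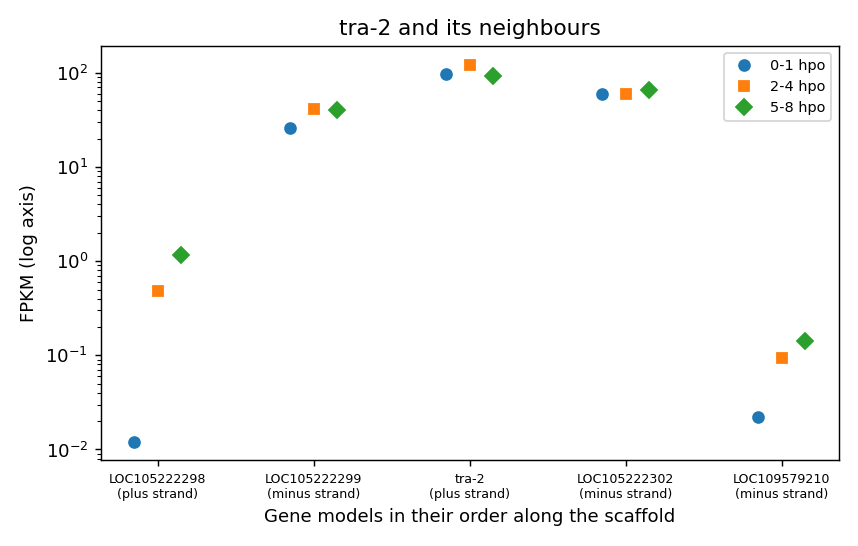
FPKM (vertical log axis) of tra-2 and of the 2 gene models on each side of it, in their order along the scaffold (horizontal axis), at each age. tra-2 and the models next to it stood between 26.1 and 122 at all ages, while both outer models stayed at or below 1.15.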

How the data were processed

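RNA-seq libraries of Bactrocera dorsalis embryos at 3 ages were used, 1 library per age. Per the labels' protocols, poly-T selected RNA was made into libraries with random hexamer priming. Per the submitters' processing notes, HISAT2 2.0.4 and HTSeq 0.9.1 were used; the sources used here do not give their roles or settings, the genome build or the annotation. The deposited counts are whole numbers per gene with 65069185 to 74817640 reads per library. The deposited FPKM values are scaled by the authors to length and library total. A gene missing from a count table had an FPKM of 0 and was taken as 0 reads. The tables were joined by gene ID.

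Names came from the RefSeq gene table of assembly ASM2337382v1, which may not be the authors' build, so no coordinates were taken from it. Of 13489 IDs, 11887 matched. Folds are ratios of FPKM without a pseudocount, with exact conditional binomial intervals of the counts, and levels have exact Poisson intervals, both at 95% (scipy 1.17.1, pandas 2.3.3). Similar level means a geometric mean FPKM within 2-fold of tra-2. Named genes are the 3 next above and below it in level, those of similar level with an informative name, the 5 most alike in course among all genes and among named genes, and the 2 models on each side of it. The gene, the lists and the rules were chosen with earlier results of these data known. Ratios and their intervals were tested on data simulated with Poisson counting error only, which the intervals assume. Spread between libraries was not simulated. Alternatives were other scalings, a pseudocount of 1, other level windows, the listed length and RPM, which has no length term.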

Additional observations from a re-analysis of the deposited data

How the results depend on the processing

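Of 39 alternative values for 8 results on tra-2, 11 stayed within the 95% interval of the reported value and 28 moved beyond it. None carried a ratio between ages past 2-fold. For the shares of genes, that interval is a binomial one over genes, which treats them as independent draws. It does not cover counting error. For 2-4 against 0-1 hpo the ratio was 1.17 on the TPM scale, 1.44 with median-of-ratios scaling, 1.70 with upper-quartile scaling and 1.38 with totals that leave out the 100 most abundant genes. For 5-8 against 2-4 hpo it was 0.733 on the TPM scale, 0.686 with upper-quartile scaling and 0.720 without the most abundant genes. For 5-8 against 0-1 hpo it was 0.861, 1.06, 1.17 and 0.993 in the order of the 4 scalings above, so the direction turned under median-of-ratios and upper-quartile scaling. Highest over lowest age, recomputed under alternatives added after seeing the data, was 1.36, 1.44, 1.70 and 1.39 in that order. The share of detected genes below tra-2 was, at the 3 ages in order, 88.9%, 93.0% and 90.8% among genes with at least 1 read, 82.2%, 88.0% and 84.5% with the listed length, and 73.6%, 82.4% and 78.2% on RPM. The share of genes of similar level that were steadier was 9.91% with the level taken at 0-1 hpo, 14.0% on the TPM scale and 16.4% with median-of-ratios scaling. It was 25.1% with upper-quartile scaling, added after seeing the data. Why the scalings differ was not tested. No paired analysis was possible because there was only 1 library for each age, and for the same reason no library was left out. Depth does not limit tra-2, with 9506 reads or more per library.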
